A study of Mus musculus with 26 samples.

Results

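The 10 genes described here are transcription regulators of meiosis and of spermiogenesis, the reshaping of round spermatids into sperm. They were chosen by gene symbol (*Mybl1*, *Tcfl5*, *Brdt*, *Rfx2*, *Rfx3*, *Sox30*, *Sox5*, *Crem*, *Fhl5* and *Tbpl1*) from the 51124 genes of a gene expression table of mouse testis. All 10 were found once each by symbol, and all 10 passed the filter on low values. The rule used names alone, and results of these data were already known when the genes were named.

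Total RNA of whole adult testes was sequenced after removal of ribosomal RNA, with 2 libraries per genotype and 3 genotypes. The library titles do not say whether each library came from a separate mouse. Both knock-in lines carry 10 binding sites for piR-A, an abundant piRNA of pachytene spermatocytes, within the *Ythdc2* 3′ UTR, and they were made with CRISPR/Cas9 at this locus of the B6D2F1/J hybrid line. In 10xPerf the sites pair perfectly with piR-A, whereas in 10xBulge they are mismatched at guide positions 10 and 11, across the place where a PIWI protein would slice. The wild-type mice (WT) carry no inserted site. The labels name the line of each library but do not say whether the mouse was homozygous. Values are normalized read counts per gene, so a value can be compared between libraries. Levels of different genes are ordered only per kilobase of transcript, and a difference of log2 values between genes of a library is not corrected for length and is compared only between libraries. Each library held about 41.1 to 61.6 M reads, and 3 reads were worth 2.73 to 3.63 normalized counts, far below every member value. *Ythdc2*, the gene carrying the sites, had 827 and 2412 normalized counts in WT, 1334 and 1136 in 10xPerf, and 1202 and 2458 in 10xBulge, so the genotypes overlapped.

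Male germ cells pass through meiosis as spermatocytes and then differentiate as haploid spermatids, and each step has its own transcription programme. A-MYB, the product of *Mybl1*, starts the pachytene programme, including the genes that make pachytene piRNAs, and TCFL5 acts beside it. RFX2 and SOX30 act from late meiosis into round spermatids, and CREM with its testis partner ACT, the product of *Fhl5*, activates genes of the spermatid that code for protamines and transition proteins. In RNA from a whole testis, fewer cells of a type and less RNA per cell of that type cannot be told apart.

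The promoter letters of the regulators that carry a short match to an RFX or SOX factor's motif are shown here because some of those factors are themselves members. The sequences are from RefSeq on the mouse build GRCm38.p6, were read from 250 bases before to 50 bases after each annotated start, and are printed 5′ to 3′ along the gene, which lies on the minus strand in every line. Capitals mark GTTGCC, the core of an arm of the X-box bound by RFX proteins, read on either strand, in the first 3 lines, and AACAAT, a SOX motif, in the other 2.

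*Rfx2*, 116 bases before the start, chr17:56831109-56831134: cttggtaaccGTTGCCgggcgcaacg
*Rfx3*, 31 bases after the start, chr19:28011120-28011145: tatagcaaccGTTGCCttgtgaatca
*Sox5*, 16 bases before the start, match on the other strand, chr6:143947107-143947132: aagtgacttaGGCAACaggaatggtt
*Fhl5*, 44 bases before the start, chr4:25242881-25242906: ctcatgacatAACAATcggtgtcagc
*Fhl5*, 24 bases after the same start, chr4:25242813-25242838: gaaagcaggtAACAATcctgagttat

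Of the 10 regulators, 8 had an entry in the promoter table, *Fhl5* with 2 starts, and *Crem* and *Mybl1* had none. GTTGCC was found on either strand in 3 of these 8 genes, against 12.5% of all 32851 mouse promoters of the same length, and AACAAT in 1 gene, against 10.7%. The full cyclic AMP response element TGACGTCA, which CREM binds, was in none of the 8 and in 1.79% of all promoters, and its shorter form TGACG was in *Rfx2*, against 20.8% of all. AACNG, the core letters of a MYB motif, was in all 8, but also in 80.3% of all promoters, and in *Rfx2*, *Rfx3* and *Sox5* it overlapped the GTTGCC match. CCAAT was found in *Fhl5*, *Brdt*, *Sox30* and *Rfx2*, against 37.4% of all promoters. These matches describe letters in a window and show neither binding nor its absence.

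In 10xBulge testes 7 of the 10 regulators fell against WT, by limma at an adjusted p under 0.1, and none rose. Of all 23782 genes tested, 34.4% passed this test in that comparison, and 23.0% did so in the lower direction. The size of the fall differed widely, from 97.3 times for *Fhl5* to 2.26 times for *Brdt*, whereas *Mybl1*, *Tcfl5* and *Tbpl1* did not pass. The median log2 fold change over the 10 regulators was -1.68, beside -0.03 over all genes tested. Both 10xBulge libraries lay below both WT libraries for 9 of the 10, and none had both above. Of all genes tested, 33.2% were lower without overlap in 10xBulge and 28.9% were higher. In 10xPerf testes no regulator passed the test.

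**Figure D1:**
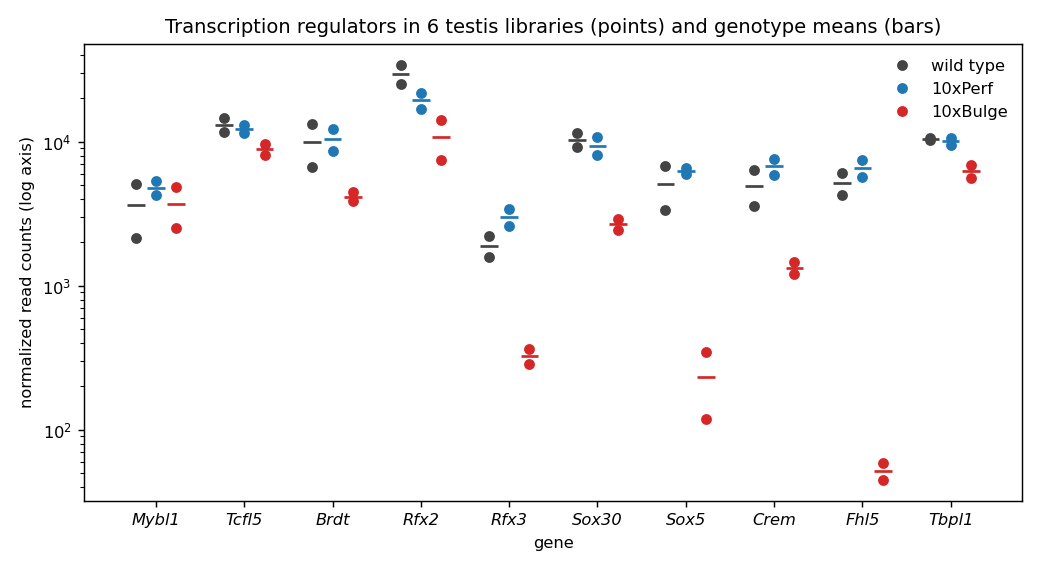
Normalized read counts (log axis) of the 10 regulators in each of the 6 testis libraries, with points for libraries, bars for genotype means, and WT in grey, 10xPerf in blue and 10xBulge in red. The *Fhl5* points of 10xBulge, at 44.7 and 58.6, lie far below all others of that gene, while the *Mybl1* points of the 3 genotypes overlap.

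*Mybl1* and *Tcfl5*, regulators of pachytene, had the smallest log2 fold changes of the 10 in 10xBulge. *Mybl1* had 2152 and 5110 normalized counts in WT replicates 1 and 2, 5351 and 4226 in 10xPerf replicates 3 and 4, and 2498 and 4859 in 10xBulge replicates 5 and 6. The WT pair was spread more widely than the 10xBulge pair, and the genotypes overlapped. The log2 fold change of 10xBulge against WT was 0.07, with a 95% confidence interval from -1.11 to 1.26 (adjusted p = 0.939, limma), and did not pass the test. Its sign and call were not stable, since it was -0.069 with upper-quartile scaling, -0.55 without WT replicate 1, and 0.86 with the GC trend of each library removed, where it passed as higher (adjusted p = 0.0802).

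*Tcfl5*, a basic helix-loop-helix factor of spermatocytes, had 11635 and 14614 normalized counts in WT, 11519 and 12989 in 10xPerf, and 9556 and 8094 in 10xBulge. Both 10xBulge libraries were below all 4 others, but by little. The log2 fold change was -0.57 (95% confidence interval -1.45 to 0.32, adjusted p = 0.318, limma) and did not pass the test.

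*Brdt*, which codes for the testis-specific bromodomain protein that reads acetylated histones, had 6650 and 13205 normalized counts in WT, 12201 and 8546 in 10xPerf, and 3869 and 4441 in 10xBulge. The 10xBulge pair was close together and below the other 4 libraries, while the WT replicates differed from each other by 0.99 on the log2 scale. *Brdt* fell in 10xBulge, with a log2 fold change of -1.18 ± 0.46 (SE, adjusted p = 0.0900, limma). The call was a narrow one, and it was lost in 9 of the 17 alternative treatments of the data, for example without WT replicate 2 (-0.68, adjusted p = 0.338) and with scaling by library totals (-0.79, adjusted p = 0.226).

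Both RFX factors fell in 10xBulge. *Rfx2*, which codes for a regulator of cilium and flagellum genes needed in round spermatids, had 34157 and 25068 normalized counts in WT, 21869 and 16720 in 10xPerf, and 14112 and 7395 in 10xBulge. The 3 genotypes formed steps that did not overlap, with WT the highest and 10xBulge the lowest. *Rfx2* fell in 10xBulge by 1.52 ± 0.47 on the log2 scale (SE, adjusted p = 0.0412, limma), a call lost without WT replicate 1 (-1.30, adjusted p = 0.194), without 10xBulge replicate 6 (-1.05, adjusted p = 0.113) and when only the WT and 10xBulge libraries were fitted (adjusted p = 0.105). The step between 10xPerf and 10xBulge did not pass (log2 fold change -0.90, 95% confidence interval -1.95 to 0.15, adjusted p = 0.179), nor did the step between WT and 10xPerf (-0.61, adjusted p = 0.853).

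*Rfx3*, best known for its role in the cilia of other tissues, had 1573 and 2224 normalized counts in WT, 2606 and 3417 in 10xPerf, and 361 and 286 in 10xBulge. Here 10xPerf was the highest genotype, and none of the 3 overlapped. *Rfx3* fell in 10xBulge 5.80 times (log2 fold change -2.54 ± 0.40, SE, adjusted p = 0.00134, limma). The level of *Rfx3* relative to *Rfx2* in the same library, as a difference of log2 values, was -4.44 and -3.49 in WT, -3.07 and -2.29 in 10xPerf, and -5.28 and -4.69 in 10xBulge, so it was lowest in 10xBulge and highest in 10xPerf.

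Both SOX members, *Sox30* and *Sox5*, fell as well. *Sox30*, which codes for a factor required for round spermatid development, had 11418 and 9145 normalized counts in WT, 10699 and 8060 in 10xPerf, and 2919 and 2430 in 10xBulge. WT and 10xPerf overlapped and 10xBulge lay below both. *Sox30* fell 3.84 times (log2 fold change -1.94 ± 0.39, SE, adjusted p = 0.00594, limma), and the call held in all 17 alternatives.

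*Sox5*, whose testis form is found in spermatids, had 3353 and 6795 normalized counts in WT, 6512 and 5936 in 10xPerf, and 348 and 120 in 10xBulge. Every 10xBulge value was below every other value, and the 10xBulge pair differed from each other by 1.53 on the log2 scale, the widest spread of any regulator in that genotype. *Sox5* fell 23.3 times (log2 fold change -4.54 ± 0.56, SE, adjusted p = 0.000291, limma), ranging from -5.31 to -3.77 over the alternatives. The level of *Sox5* relative to *Sox30* in the same library, as a difference of log2 values, was -1.77 and -0.43 in WT, -0.72 and -0.44 in 10xPerf, and -3.06 and -4.33 in 10xBulge.

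Transcripts are annotated on the strand opposite *Sox5*, and the library kit kept strand while the strand setting was left to the counting program. Of these, *Sox5os3* had 10.1 and 16.7 normalized counts in WT, 652 and 783 in 10xPerf, and 0.856 and 0 in 10xBulge, and was chosen for mention after its values were seen. The 10xPerf values of *Sox5os3* stood far above the other libraries (log2 fold change against WT 5.67, adjusted p = 0.00418, limma), while the 10xPerf values of *Sox5* itself lay within the WT range.

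The spermatid activator *Crem* and its partner *Fhl5* both fell. *Crem* had 3561 and 6306 normalized counts in WT, 7586 and 5872 in 10xPerf, and 1209 and 1449 in 10xBulge. All 4 WT and 10xPerf libraries were above the 10xBulge pair. *Crem* fell 3.58 times (log2 fold change -1.84 ± 0.43, SE, adjusted p = 0.0119, limma), and the call held in all 17 alternatives, with values from -2.25 to -1.23. The table sums all transcripts of a gene, so the activator and repressor forms that *Crem* makes from different promoters and exons were not separated.

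*Fhl5* had 4234 and 6097 normalized counts in WT, 5719 and 7473 in 10xPerf, and 44.7 and 58.6 in 10xBulge. It was the most reduced regulator, and the 10xBulge pair lay far below the other 4 libraries, which overlapped between WT and 10xPerf. *Fhl5* fell 97.3 times (log2 fold change -6.60 ± 0.40, SE, adjusted p = 7.15e-06, limma), and 2.06% of all genes tested had a lower log2 fold change. The level of *Fhl5* relative to *Crem* in the same library, as a log2 difference of normalized counts, was 0.25 and -0.05 in WT, -0.41 and 0.35 in 10xPerf, and -4.73 and -4.60 in 10xBulge. The 10xBulge pair was close together on this measure and lay below the other 4 libraries.

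*Tbpl1*, which codes for the TBP-like factor TRF2 required in spermatids, had 10507 and 10223 normalized counts in WT, 9488 and 10573 in 10xPerf, and 5598 and 6906 in 10xBulge. WT and 10xPerf overlapped, and the 10xBulge pair lay below them. The log2 fold change was -0.74 (95% confidence interval -1.60 to 0.12, adjusted p = 0.188, limma) and passed in none of the 17 alternatives. *Tbp*, the general factor, gave a log2 fold change of -0.21 (adjusted p = 0.729).

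**Figure D2:**
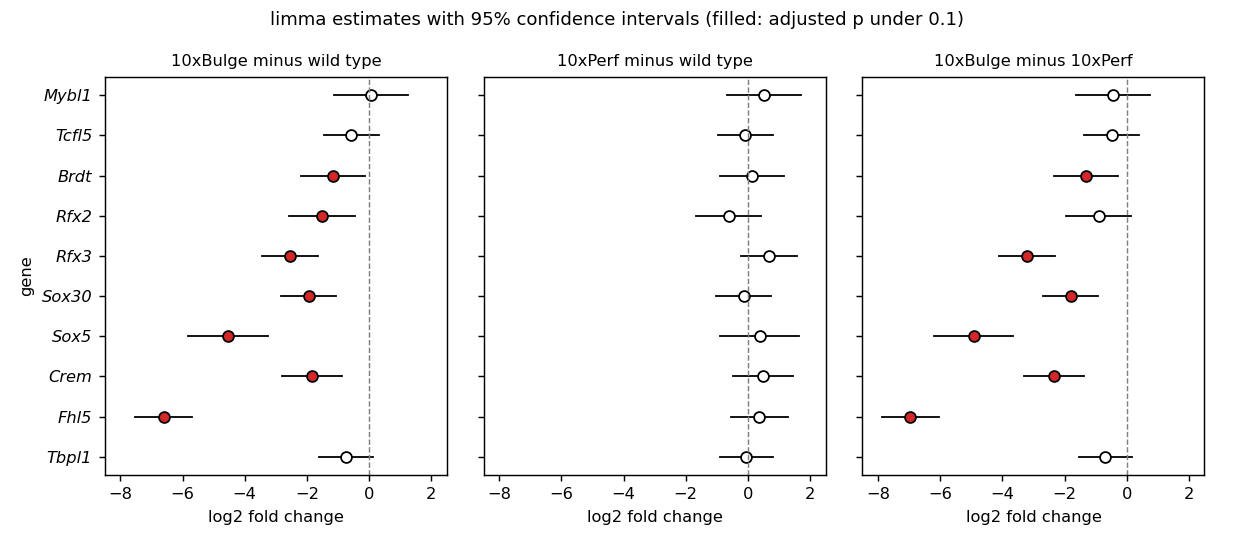
Log2 fold changes of the 10 regulators (points) with 95% confidence intervals (lines) in the 3 comparisons, from limma, with filled points for an adjusted p under 0.1. In 10xBulge against WT 7 points are filled and all lie below 0, and in 10xPerf against WT none is filled and every interval crosses 0.

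Per kilobase of each gene's longest transcript, the order of the regulators differed between genotypes. In WT, *Rfx2* had the highest mean level, 7151 normalized counts per kilobase, followed by *Tcfl5* at 5899, *Fhl5* at 4411, *Tbpl1* at 3608 and *Sox30* at 3431. *Brdt* at 2092 and *Crem* at 1683 came next, and *Mybl1* at 729, *Sox5* at 701 and *Rfx3* at 208 were the lowest. In 10xBulge the first places were held by *Tcfl5* (3966 normalized counts per kilobase), *Rfx2* (2597) and *Tbpl1* (2176), and *Fhl5* (44.1), *Rfx3* (35.4) and *Sox5* (32.3) were the last. These lengths are those of the longest transcript, which need not be the form made in testis.

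The comparison of 10xPerf with WT asks whether 10 fully paired sites were followed by a change in these genes. No regulator passed the test, where 0.959% of all genes tested did (0.467% higher and 0.492% lower), and none had an unadjusted p under 0.05, against 6.09% of all genes tested. The log2 fold changes ranged from -0.61 for *Rfx2* to 0.67 for *Rfx3*, with 4 below and 6 above 0, a median of 0.24 beside 0.02 over all genes tested, and adjusted p from 0.853 to 0.976 (limma). Of the 10, 8 had overlapping libraries, *Rfx2* was lower in both 10xPerf libraries and *Rfx3* higher in both, and of all genes tested 20.2% were higher and 19.8% lower without overlap in 10xPerf. The intervals were wide, -1.66 to 0.44 for *Rfx2* and -0.23 to 1.58 for *Rfx3*, and a change inside such an interval was not detectable with 2 libraries per genotype.

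Between the knock-in lines, 10xBulge against 10xPerf, 6 of the 10 regulators passed and all 6 were lower in 10xBulge, beside 37.0% of all genes tested and 24.1% in the lower direction. All 10 log2 fold changes were below 0, with a median of -1.55 beside -0.07 over all genes tested. Both 10xBulge libraries were below both 10xPerf libraries for 9 of the 10, *Mybl1* being the exception, where 35.3% of all genes tested were lower without overlap and 30.7% higher. *Fhl5* (-6.97, adjusted p = 5.19e-06, limma), *Sox5* (-4.92, adjusted p = 0.000164) and *Rfx3* (-3.21, adjusted p = 0.000284) had the largest log2 fold changes. *Crem* (-2.33, adjusted p = 0.00301), *Sox30* (-1.80, adjusted p = 0.00841) and *Brdt* (-1.30, adjusted p = 0.0616) passed as well. *Tbpl1* (-0.69), *Tcfl5* (-0.48) and *Mybl1* (-0.45), like *Rfx2*, did not pass. This comparison shares its 10xBulge libraries with the one against WT, so the pair of results is not independent. Without 10xPerf replicate 3 the call of *Sox30* was lost (-1.60, adjusted p = 0.105), as was that of *Brdt* (-1.04, adjusted p = 0.349), which was lost in 5 of the 17 alternatives, among them those without 10xPerf replicate 4 and without 10xBulge replicate 5 (adjusted p = 0.134 in both).

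Marker genes of the testis cell types did not all move the same way in 10xBulge. Of all genes tested, 23.0% fell and 11.4% rose against WT. The summed level of 12 spermatid markers was 139478 and 111802 normalized counts in WT, 114016 and 125190 in 10xPerf, and 9943 and 14433 in 10xBulge. Of the 12, 11 fell in 10xBulge against WT, with a median log2 fold change of -4.91. The summed level of 15 spermatocyte markers was 36265 and 69816 in WT, 68854 and 60920 in 10xPerf, and 61674 and 60060 in 10xBulge, and 1 rose, 2 fell and the median was 0.12. This median was -0.35 without WT replicate 1 and 0.54 without WT replicate 2. With scaling by library totals 4 spermatocyte markers rose and 1 fell (median 0.50). With the GC trend removed 8 rose and 1 fell (median 0.98), and 4 rose and 2 fell when that correction kept each library's level (median 0.37). For 10 spermatogonial markers the sums were 16877 and 19403 in WT, 13339 and 19094 in 10xPerf, and 28541 and 45662 in 10xBulge, and 2 rose and 1 fell (5 and 0 after scaling to library totals, 8 and 0 once GC trends were removed, 1 and 0 without either WT replicate). WT replicate 1 had the lowest spermatocyte sum of the 6 libraries, and also the lowest *Mybl1* value.

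Somatic markers were higher in 10xBulge. The sum of 11 Sertoli markers ranged from 71833 to 72605 in WT, from 50560 to 73810 in 10xPerf and from 120429 to 257745 in 10xBulge, and 8 rose, although this count ranged from 1 to 9 when each library was left out in turn. The sum of 8 Leydig markers ranged from 53899 to 75186 in WT, from 46320 to 81422 in 10xPerf and from 146786 to 302022 in 10xBulge, and 6 rose (1 without WT replicate 1, 3 without 10xBulge replicate 5). The sum of 8 macrophage markers ranged from 3916 to 5154 in WT, from 4743 to 7763 in 10xPerf and from 12110 to 17362 in 10xBulge, and 7 rose (3 without WT replicate 1, 4 without WT replicate 2). No marker of these 6 lists was at 0 in any library, and none passed the test in 10xPerf against WT. The part of these shifts in the fall of the regulators was not tested.

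Each regulator was therefore also set against the median marker of the same library, as a difference of log2 levels. Relative to spermatocyte markers, 8 of the 10 regulators were lower in both 10xBulge libraries than in both WT libraries, and *Tcfl5* and *Mybl1* overlapped. On the same measure 27.0% of all genes tested were lower without overlap and 27.2% higher. Among the 8 lower regulators, *Rfx2* and *Tbpl1* were also lower in both 10xPerf libraries than in WT, and their 10xBulge libraries overlapped 10xPerf. *Rfx2* stood at 2.77 and 2.32 in 10xPerf and at 3.03 and 1.45 in 10xBulge. *Tbpl1* stood at 1.57 and 1.66 in 10xPerf and at 1.70 and 1.35 in 10xBulge. The others of the 8 were lower in 10xBulge than in 10xPerf as well. *Mybl1* stood 0.14 and 0.82 above the spermatocyte median in WT and 0.53 and 0.84 above it in 10xBulge. *Fhl5* stood 1.12 and 1.08 above it in WT, 0.84 and 1.16 above in 10xPerf, and was at -5.24 and -5.51 in 10xBulge.

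Relative to spermatid markers most regulators were higher in 10xBulge, as were most genes, since 91.0% of all genes tested were higher without overlap on this measure and 3.22% lower. *Fhl5* alone was lower in both 10xBulge libraries than in both WT libraries (-3.21 and -1.41 against -1.29 and -0.55), and the other 9 were higher. The *Fhl5* margin was narrow, between -1.41 in 10xBulge replicate 6 and -1.29 in WT replicate 1. The spermatid median itself differed within 10xBulge, at 8.72 in replicate 5 and 7.31 in replicate 6. For *Sox5* the margin was slight, with -0.28 and -0.39 in 10xBulge against -1.62 and -0.40 in WT. *Crem* was at -1.54 and -0.50 in WT and at 1.52 and 3.20 in 10xBulge. These within-library differences are descriptions, and no test was made on them.

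**Figure D3:**
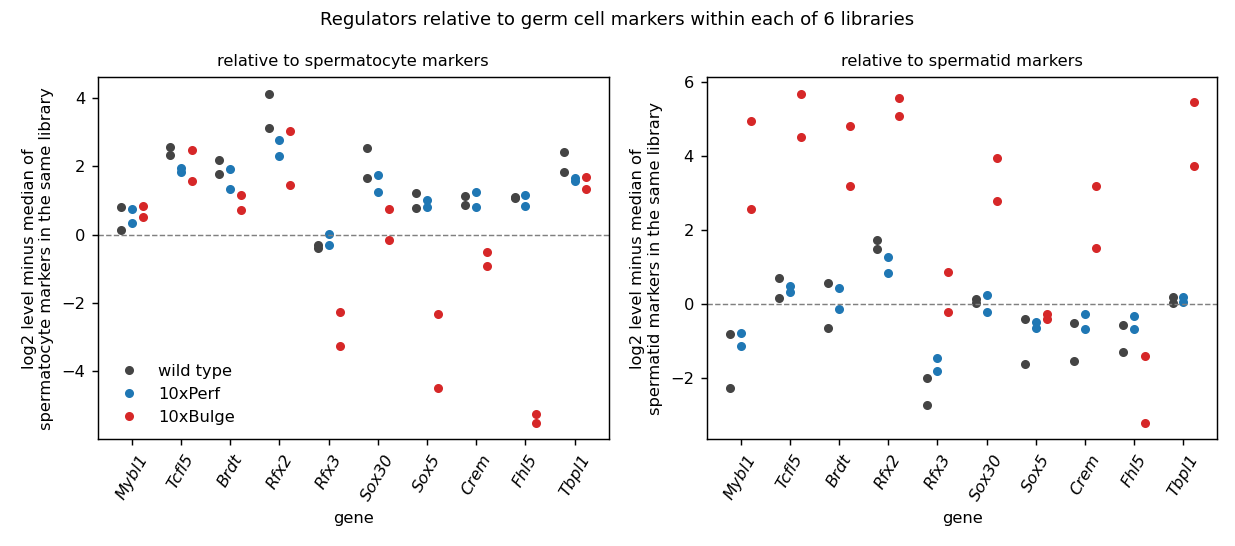
Log2 level of each regulator minus the median of 15 spermatocyte markers (left) or 12 spermatid markers (right) in the same library, with a point per library, WT in grey, 10xPerf in blue and 10xBulge in red. On the left 8 regulators are lower in both 10xBulge libraries than in both WT libraries, of which *Rfx2* and *Tbpl1* overlap between 10xBulge and 10xPerf. On the right *Fhl5* alone is lower than in WT, by a narrow margin.

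Close relatives of the regulators gave a mixed record. Of 20 paralogues 19 were tested, and *Tbpl2*, at 1.04 or less in every library, was not. In 10xBulge against WT 6 fell and 1 rose, with a median log2 fold change of -0.13, beside 23.0% of all genes tested that fell and 11.4% that rose. With scaling by library totals 5 rose and 5 fell with a median of 0.26, with the GC trend removed 8 rose and 5 fell, and without WT replicate 1 none rose and 4 fell. *Creb3l4*, a CREB family member of spermatids, had 11430 and 11134 normalized counts in WT and 400 and 146 in 10xBulge (log2 fold change -5.54, adjusted p = 3.97e-05, limma). *Rfx1* (-3.39, adjusted p = 0.000618), *Rfx4* (-2.50, adjusted p = 0.00211), *Sox6* (-3.07, adjusted p = 0.00189), *Brd3* (-1.62, adjusted p = 0.0302) and *Fhl4* (-1.18, adjusted p = 0.0908) also fell, and *Fhl1* rose (1.17, adjusted p = 0.0477).

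Further paralogues did not pass, among them the broadly expressed CREB factors. *Creb1* (0.44), *Atf1* (-0.13), *Rfx5* (0.83), *Rfx7* (0.88) and *Sox13* (0.51) had positive or small log2 fold changes, and others were *Fhl2* (0.79), *Fhl3* (1.11), *Myb* (-1.11), *Mybl2* (-0.01) and *Brd2* (-0.73). The difference between *Fhl5* and its testis relative *Fhl4* in the same library was -3.83 and -4.05 on the log2 scale in WT, -3.96 and -3.69 in 10xPerf, and -9.53 and -9.19 in 10xBulge. *Sox5* and *Sox6* stayed closer, at -0.22 and -0.55 in WT, -0.43 and -0.19 in 10xPerf and -0.77 and -2.95 in 10xBulge. Against 10xPerf, 4 paralogues rose and 6 fell, beside 12.9% and 24.1% of all genes tested, and without 10xPerf replicate 3 none rose and 4 fell.

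Among 23 other transcription regulators of germ cells, 4 fell and 1 rose in 10xBulge against WT, and the median log2 fold change was 0.30. Of all genes tested, 23.0% fell and 11.4% rose, so in the reported fit this list passed no more often than genes at large. *Spz1*, a basic helix-loop-helix zipper factor of the testis, fell the most, from 19121 and 33193 normalized counts in WT to 282 and 192 (log2 fold change -6.75, adjusted p = 8.14e-06, limma). *Nr6a1*, the germ cell nuclear factor of round spermatids, fell (-1.78, adjusted p = 0.00987), as did *Zfy1* (-1.40, adjusted p = 0.0918) and *Dmrtb1* (-1.21, adjusted p = 0.0959). *Sohlh2*, a factor of spermatogonia, rose (1.42, adjusted p = 0.0466). With scaling by library totals 6 of the 23 rose and 2 fell. With the GC trend removed 11 rose and 3 fell (median 0.94), and 2 rose and 7 fell when that correction kept each library's level. The counts also moved with single libraries, and the median was 0.05 without WT replicate 1 and 0.41 without WT replicate 2.

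Genes known to depend on, or be linked with, the regulators were taken as 3 lists, and 23.0% of all genes tested fell in 10xBulge against WT. All 9 CREM-dependent spermatid genes fell in 10xBulge against WT, with a median log2 fold change of -8.70, and all 9 did so in every alternative. *Prm1*, which codes for a protamine that packs sperm DNA, fell by 10.97 (adjusted p = 4.39e-06, limma), and *Prm2* fell by 10.88 (adjusted p = 4.39e-06). *Tnp1*, which codes for a transition protein, fell by 9.89 (adjusted p = 3.77e-06), and *Tnp2* fell by 10.11 (adjusted p = 4.39e-06). These genes are spermatid transcripts themselves, and *Crem* fell by 1.84 in the same libraries.

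Of 13 cilium and flagellum genes linked to RFX factors, 6 fell and none rose in 10xBulge against WT, with a median of -1.01. The shares over all genes tested were 23.0% lower and 11.4% higher. Among those that fell were *Foxj1*, a master regulator of motile cilia (-3.69, adjusted p = 0.00066, limma), *Ift172* (-2.70, adjusted p = 0.0034) and *Meig1* (-1.15, adjusted p = 0.0639). The count of 6 was sensitive to single libraries and to processing. With scaling by library totals 4 fell (median -0.62), and with the GC trend removed 4 fell and 1 rose (median -0.41). When only the WT and 10xBulge libraries were fitted 3 fell, and with upper-quartile scaling 7 did. The median was -1.08 without WT replicate 1 and -0.93 without WT replicate 2.

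Of 8 piRNA pathway genes linked to A-MYB, none passed the test in either direction in 10xBulge against WT, where 34.4% of all genes tested did. The median of the 8 was 0.10, and none of them was called lower or higher. This count became 3 higher with scaling by library totals and 4 higher with the GC trend removed, where the median was 0.70. It was 2 higher when that correction kept each library's level. With scaling by the upper quartile or by a trimmed mean of log ratios it was 1 higher. The count also moved with single libraries, and the median was 0.10 without WT replicate 1 and 0.38 without WT replicate 2. In the reported fit the *Mybl1* level itself did not pass either. In 10xPerf against WT, no gene of the 5 lists of related genes passed.

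**Figure D4:**
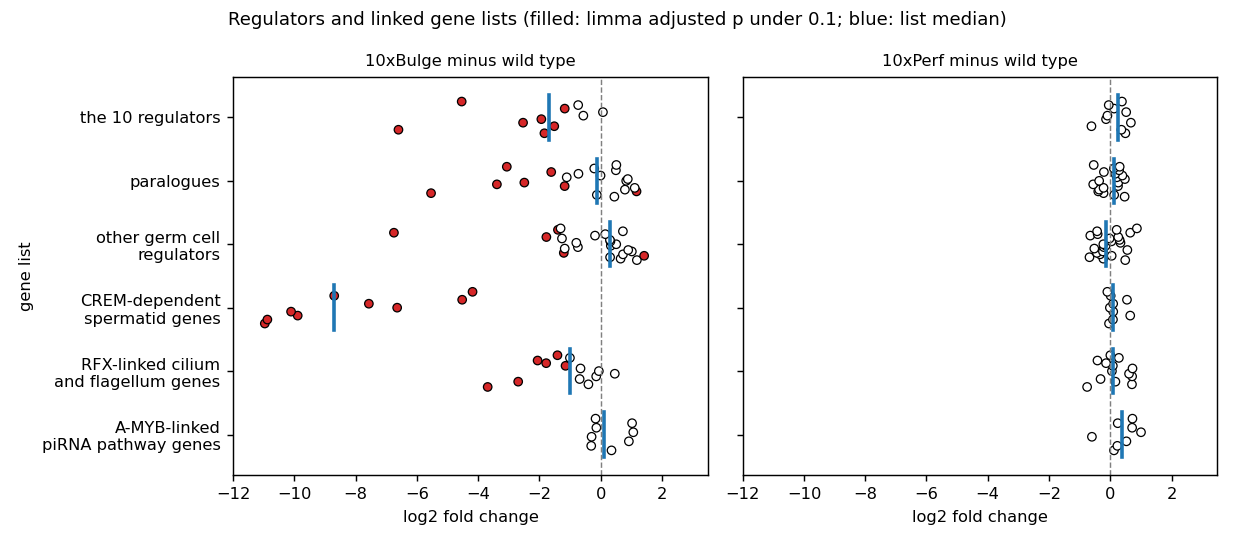
Log2 fold changes from limma of the 10 regulators and of 5 lists of related genes (a point per gene, filled for an adjusted p under 0.1, blue bar for the list median) in 10xBulge (left) and 10xPerf (right) against WT. On the left all 9 CREM-dependent genes are filled around a median of -8.70, whereas the A-MYB-linked genes are unfilled around 0.10, and on the right no point is filled.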

How the data were processed

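Total RNA of whole testis was sequenced in 6 libraries. The authors quantified reads with salmon (GC bias correction, Ensembl release 104 on GRCm39) and used DESeq2 to obtain normalized read counts. The deposited values are this signal per gene and are not whole. Their sums still differed between libraries, from 39754103 in 10xBulge replicate 6 to 59804251 in WT replicate 1. The table also holds the authors' fold changes and adjusted p-values, which were not used. As 19.3% of genes above 0 were whole multiples of the value of 1 read (tolerance 0.01), whole reads were not recovered. Depth was approximated as the library sum divided by that value.

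Values were analysed as log2(value + 1), so folds of low genes are understated. Genes reaching 10 or more in 2 or more of the libraries were fitted in limma 3.58.1 (R 4.3.3) with all 6 libraries, 3 genotypes and a mean-variance trend, with Benjamini-Hochberg adjustment over 23782 genes and a threshold of 0.1. The code was tested on simulated data. With 2 libraries per genotype, p-values measure the spread between few libraries. The lone library left when another was removed was assumed to vary like the other genotypes. Members and lists were chosen with earlier results of these data known. All members and paralogues were named, plus, per related list and direction, the 4 passing genes with the smallest p, except for items not reported here. Promoters came from RefSeq (GRCm38.p6), and no coordinate was converted. Alternatives covered scaling, filter, pseudocount, libraries fitted, variance trend, GC content, single libraries and threshold. Python 3.11.15 was used for descriptions.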

Additional observations from a re-analysis of the deposited data

How the results depend on the processing

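Of the 10 regulators, 7 fell in 10xBulge against WT, and 5 to 7 fell under the alternatives, with 6 in each of the leave-one-out fits. *Crem*, *Fhl5*, *Rfx3*, *Sox30* and *Sox5* passed in all 17 alternatives. In 10xPerf against WT no regulator passed under any. Against 10xPerf, 6 regulators fell, the leave-one-out fits gave 4 to 6, library totals and removal of the GC trend gave 5 each, and the GC correction that kept each library's level gave 8. Scaling by library totals moved the median of all genes by 0.36 in 10xBulge against WT, by 0.15 in 10xPerf against WT and by 0.18 in 10xBulge against 10xPerf, and upper-quartile scaling moved it by -0.16 in the first. With library totals 5788 genes rose and 4745 fell in 10xBulge against WT, where 2712 and 5466 did in the reported fit, and against 10xPerf 5122 rose and 5160 fell, where 3077 and 5729 did.

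Genes past the threshold in 10xBulge against WT numbered 8178, and 13437 after removal of each library's GC trend, which moved the median of all genes by 0.58 and made *Mybl1* pass (0.86, adjusted p = 0.0802, limma). Leave-one-out fits gave 4544, without WT replicate 1, to 8331. In 10xPerf against WT there were 228, and 149 with library totals, 97 with at least 10 in every library, 105 with a pseudocount of 0.1, 404 with only the 2 genotypes fitted, 135 at an adjusted p under 0.05, and 28 (without 10xPerf replicate 3) to 419 (without 10xBulge replicate 6) in leave-one-out fits. In 10xBulge against 10xPerf there were 8806, 13645 with the GC trend removed, and 4158 (without 10xPerf replicate 3) to 9205 in leave-one-out fits. The causes were not tested. A version of the GC correction that kept each library's level was chosen after seeing the data, and gave 10148 genes in the first comparison.

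Signs that turned belonged to changes that had not passed. In 10xBulge against WT, *Mybl1* became -0.069 with upper-quartile scaling and ranged from -0.55 (without WT replicate 1) to 0.69 in leave-one-out fits. In 10xPerf against WT, *Sox30* became 0.064 with the GC trend removed and 0.11 with the level kept, with a leave-one-out range from -0.34 to 0.066. *Tcfl5* became 0.042 with library totals and 0.22 and 0.26 under the GC corrections, with a leave-one-out range from -0.26 to 0.072. *Brdt* became -0.12 and -0.074 under the GC corrections, with a leave-one-out range from -0.37 to 0.62. *Tbpl1* became 0.085 with library totals, with a leave-one-out range from -0.13 to 0.029. Leave-one-out values ranged from -0.10 to 1.14 for *Mybl1* and from -0.13 to 0.89 for *Sox5*, both negative without WT replicate 1. In 10xBulge against 10xPerf, *Mybl1* became 0.67 and 0.017 under the GC corrections, with a leave-one-out range from -0.93 to 0.031, and *Tbpl1* became 0.24 with the GC trend removed.

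Over the 10 regulators the log2 difference between WT replicates 2 and 1 went with GC content (Pearson r = -0.71, Spearman rho = -0.59, across genes of the same library pair, which are not replicates). For the difference between 10xBulge replicates 6 and 5 the values were weaker (Pearson r = -0.45, Spearman rho = -0.33). The trimmed mean scaling was computed directly in place of the planned package, and a test on counts was not run because the values are not counts. No paired analysis was possible because the genotypes share no replicate number.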
